A study of Mus musculus with 8 samples.

Results

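The genes described here are 10 genes that mark endothelial cells, the cells that line blood vessels: Pecam1, Cdh5, Kdr, Flt1, Tek, Tie1, Emcn, Plvap, Esam and Eng. They were taken as known markers of that cell type, and every probe set that the array annotation assigns to them was taken, which gave 15 probe sets for the 10 genes, out of 45037 probe sets and 18193 genes in all. Transcripts were measured on 8 Affymetrix mouse whole-genome arrays from mouse gonads at embryonic day 13, with 2 arrays in each of 4 groups. All samples came from the strain labelled C57BL6/J-Tg92, a transgenic mouse line on a C57BL/6J background in which EGFP under regulatory sequence of the testis-determining gene Sry marks the supporting cells. The groups were EGFP+ cells sorted from XX gonads (pre-granulosa cells, about 30000 cells per sample), EGFP+ cells sorted from XY gonads (Sertoli cells, about 22000 cells per sample), whole XX gonads (ovary) and whole XY gonads (testis), with 4 gonads pooled per whole-gonad sample. About 20 ng of total RNA was labelled from each sample. The labels do not state how replicate samples relate to animals or litters, so the p-values measure only the spread between these samples, which may be technical.

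The gonad receives its vessels while its sex is being settled. In the XY gonad, endothelial cells migrate in from the neighbouring mesonephros and form an artery below the surface, and the vessels help to partition the testis cords; the XX gonad is vascularised without that artery. The 10 genes encode proteins of the endothelial surface. Kdr and Flt1 are receptors for vascular endothelial growth factor (VEGF), Tek is the receptor of the angiopoietins and Tie1 is its partner. Pecam1, Cdh5 and Esam hold endothelial cells together at their junctions. Emcn is a surface sialomucin, Plvap forms the diaphragms of fenestrated capillaries, and Eng is a co-receptor for ligands of the TGF-beta family. Whole gonads hold vessels, while the sort took EGFP+ cells; whether transcript of these genes in the sorted samples came from endothelial cells or from the supporting cells themselves was not tested.

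Sequence before the transcription start was read for the members from RefSeq (assembly GRCm38.p6), where 6 of the 10 members, Kdr, Flt1, Tek, Tie1, Emcn and Eng, had an entry. Pecam1, Cdh5, Plvap and Esam were not matched. The 250 bases before the start are printed for the 4 of these that were called lower in both sorted cell types than in the matching gonad, written 5′ to 3′ on the gene's own strand. Capitals mark AGGAAG on either strand, a letter string bound by ETS transcription factors, which include regulators of endothelial genes. Kdr lies on the minus strand at chr5:75978456-75978705, Flt1 on the minus strand at chr5:147726012-147726261, Emcn on the plus strand at chr3:137340828-137341077 and Eng on the plus strand at chr2:32646345-32646594.
Kdr: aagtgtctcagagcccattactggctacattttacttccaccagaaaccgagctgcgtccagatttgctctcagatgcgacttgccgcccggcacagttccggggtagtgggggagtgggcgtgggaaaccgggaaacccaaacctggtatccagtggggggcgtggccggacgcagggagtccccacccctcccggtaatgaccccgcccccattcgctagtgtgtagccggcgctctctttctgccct
Flt1: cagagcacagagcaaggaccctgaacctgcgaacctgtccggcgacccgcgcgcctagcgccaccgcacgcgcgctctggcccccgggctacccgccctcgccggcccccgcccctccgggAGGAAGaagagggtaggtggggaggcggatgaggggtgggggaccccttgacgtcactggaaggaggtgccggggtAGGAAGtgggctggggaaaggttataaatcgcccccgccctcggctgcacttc
Emcn: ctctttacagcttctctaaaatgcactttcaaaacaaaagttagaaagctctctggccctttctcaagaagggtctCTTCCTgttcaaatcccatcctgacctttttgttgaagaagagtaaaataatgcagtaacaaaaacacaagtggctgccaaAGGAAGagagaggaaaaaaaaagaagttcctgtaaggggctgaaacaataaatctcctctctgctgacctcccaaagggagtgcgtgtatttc
Eng: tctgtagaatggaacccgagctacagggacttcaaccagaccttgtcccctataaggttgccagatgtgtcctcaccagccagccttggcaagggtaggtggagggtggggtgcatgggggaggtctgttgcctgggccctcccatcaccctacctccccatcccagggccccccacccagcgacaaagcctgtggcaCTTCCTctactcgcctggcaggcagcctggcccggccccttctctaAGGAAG
Flt1, Emcn and Eng each held 2 matches that do not overlap, and Kdr held 0 matches to this string. Other letter strings that ETS factors bind were not searched. With Tie1, which held 1, 4 of the 6 member windows had the letters, against 29.5% of 32851 windows of the same length. A string bound by GATA factors (the letters AGATAA on either strand) was in 0 of the 6 windows and in 9.99% of all. These are matches of letters and were not tested for binding.

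The deposited values were on a log2 scale, and the 4 sorted-cell arrays appear to have been normalized apart from the 4 gonad arrays, since ranked values differed by at most 0.18 within the sorted set and 0.15 within the gonad set but by a median of 0.38 between the sets. Differences between sorted cells and gonads are therefore printed less the median over all probe sets (-0.21 for Sertoli minus testis and -0.25 for pre-granulosa minus ovary), while each p tests the difference as deposited. A probe set is called where its adjusted p (limma, Benjamini-Hochberg over all probe sets) is at most 0.01. A low level of 4.78 was taken from the highest XX value of 9 probe sets of 3 Y-linked genes, and where both sorted arrays of a group lay at or under it, the fold is given as a lower bound against that level. Replicates spread more in sorted cells (root mean square SD 0.53 in pre-granulosa and 0.43 in Sertoli cells) than in ovaries (0.30) and testes (0.20). The 3′ probe sets exceeded the 5′ ones most on pre-granulosa replicate 1, a sign of shorter RNA, at 3.08 for actin and 3.68 for Gapdh, against 1.57 to 2.51 and 0.72 to 2.69 on the other arrays. Of 7 Sertoli genes 6 were called higher in the XY sorted cells (1.62% of all genes were). Of 6 pre-granulosa genes 2 were called lower there (191 of 18193 genes in all), and all 6 were below 0, with a median difference of -3.97. Germ cell genes averaged 8.54 to 8.80 in whole gonads and 3.99 to 4.30 in sorted cells. In bulk RNA, fewer cells of a type and less RNA per cell cannot be told apart.

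The first question was how much endothelial transcript the sorted supporting cells carried compared with the gonads they came from. All 10 genes were lower in sorted cells on both sides. Over the 10, with 1 probe set each, the median difference as deposited was -1.5 for Sertoli minus testis, against -0.21 over all probe sets, and -2.27 for pre-granulosa minus ovary, against -0.25. By probe set, 6 of 15 were called lower in Sertoli cells than in testes (7.4% of all probe sets were) and 8 of 15 were called lower in pre-granulosa cells than in ovaries (7.0% of all), with 0 called higher on either side (1.24% and 1.28% of all). The same 6 probe sets, of the 5 genes Pecam1, Kdr, Flt1, Emcn and Eng, were called on both sides, which 4.04% of all probe sets were. Tie1 and Plvap were called on the XX side and not on the XY side. The 2 groups compared did not overlap in 13 of 15 probe sets on the XY side (49.3% of all were lower without overlap) and in 15 of 15 on the XX side (47.8%). All 4 sorted arrays lay below all 4 gonad arrays in 12 of the 15 probe sets, against 30.7% of all, and in 9 of 15, against 14.2%, once each array was centred on its median.

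**Figure D1:**
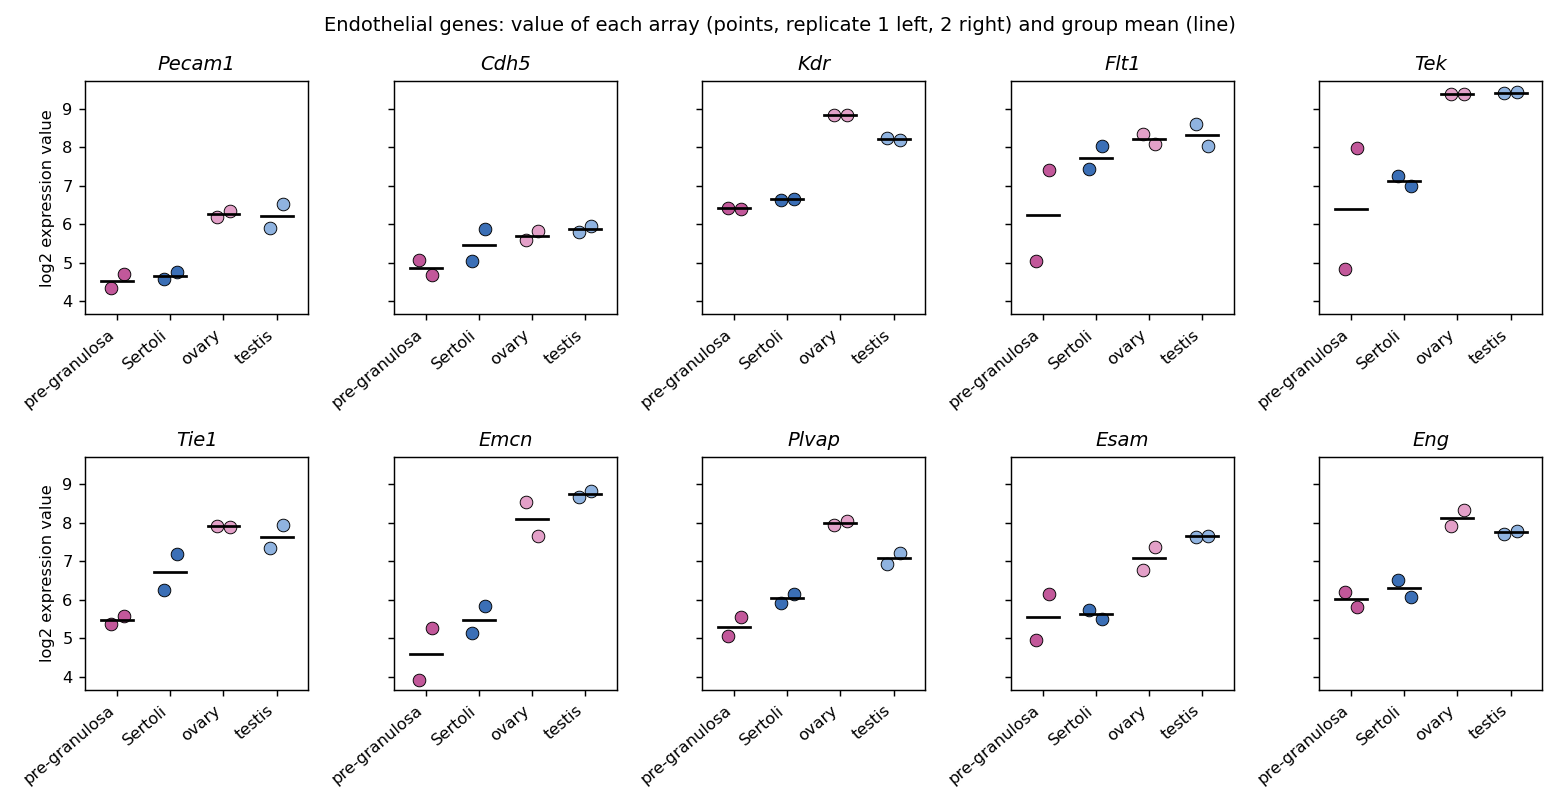
Deposited log2 value of each of the 10 endothelial genes (1 probe set per gene, one panel each) on every array; the x axis gives the 4 groups, each point is 1 array and the bar is the mean of the 2 arrays. Tek ran from 4.83 to 7.98 in sorted cells and from 9.37 to 9.44 in gonads, whereas the 2 ranges of Cdh5 overlapped, at 4.69 to 5.86 and 5.58 to 5.95.

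Among the VEGF receptors, Kdr, the main signalling receptor, read 6.42 and 6.41 in pre-granulosa cells, 6.64 and 6.65 in Sertoli cells, 8.84 and 8.84 in ovaries and 8.25 and 8.18 in testes (log2, replicates 1 and 2). The 4 groups did not overlap, and the replicates of each lay close together. Kdr was lower by 1.36 ± 0.13 (difference ± SE) in Sertoli cells than in testes, 2.57-fold (adjusted p = 0.00135), and the gap was wider on the XX side, with a difference of -2.17 ± 0.13, 4.49-fold (adjusted p = 6.79e-04). It had the lowest adjusted p of the 15 probe sets in both comparisons.

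Flt1, which binds VEGF tightly and also occurs as a soluble decoy, has 4 probe sets that disagreed in size. The brightest of them, 1451756_at, read 5.04 and 7.42 in pre-granulosa cells, 7.42 and 8.04 in Sertoli cells, 8.36 and 8.08 in ovaries and 8.61 and 8.04 in testes. Its pre-granulosa arrays lay far apart, its Sertoli arrays just missed the testis range, and it was called on neither side (-0.38 ± 0.73, adjusted p = 0.595, and -1.73 ± 0.73, adjusted p = 0.0971). The probe set 1419300_at read 4.00 and 3.76, 4.2 and 4.1, 6.01 and 6.07, and 5.99 and 5.68 in the same order of groups. All 4 of its sorted arrays lay under the low level, and it was called at least 1.78-fold lower in Sertoli cells (adjusted p = 0.00240) and at least 2.00-fold lower in pre-granulosa cells (adjusted p = 0.00143). The 2 other probe sets, 1440926_at and 1454037_a_at, spanned 3.91 to 6.06 over the 8 arrays and were called on neither side. Lower Flt1 in sorted cells thus passed the test in 1 of its 4 probe sets.

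Of the angiopoietin receptor Tek and its partner Tie1, Tek had the wider gap between replicates. Tek, also known as Tie2, read 4.83 and 7.98 in pre-granulosa cells, 7.25 and 7.0 in Sertoli cells, 9.38 and 9.37 in ovaries and 9.40 and 9.44 in testes. The 4 gonad arrays were nearly equal and every sorted array lay below them, but the pre-granulosa replicates were 3.14 apart. With that spread, the differences of -2.08 ± 0.90 in Sertoli cells (4.24-fold, adjusted p = 0.117) and -2.72 ± 0.90 in pre-granulosa cells (6.57-fold, adjusted p = 0.0591) were not called. Tie1, its partner, read 5.37 and 5.57 in pre-granulosa cells, 6.26 and 7.19 in Sertoli cells, 7.91 and 7.90 in ovaries and 7.34 and 7.94 in testes. It was lower in pre-granulosa cells than in ovaries, by 2.19 ± 0.34, 4.55-fold (adjusted p = 0.00634). In Sertoli cells against testes the difference was -0.70 ± 0.34 and was not called (adjusted p = 0.105), and the higher Sertoli array came close to the lower testis array.

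Of the junction proteins, Pecam1, an adhesion molecule that early germ cells carry as well, read 4.34 and 4.71 in pre-granulosa cells, 4.57 and 4.76 in Sertoli cells, 6.18 and 6.34 in ovaries and 5.90 and 6.53 in testes. All 4 sorted arrays lay under the low level. Against testes it was lower in Sertoli cells by at least 2.32-fold (adjusted p = 0.00912), and it was at least 2.33-fold lower in pre-granulosa cells than in ovaries (adjusted p = 0.00683). Germ cell genes were far higher in the gonads too, with Ddx4, an RNA helicase of germ cells, at 10.62 to 10.89 in gonads and 3.13 to 4.66 in sorted cells; their part in the Pecam1 difference was not tested.

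Esam, an adhesion molecule of tight junctions, read 4.97 and 6.16 in pre-granulosa cells, 5.74 and 5.52 in Sertoli cells, 6.77 and 7.38 in ovaries and 7.64 and 7.66 in testes. Its sorted and gonad arrays did not overlap, but it was called on neither side, at -1.81 ± 0.41 in Sertoli cells (adjusted p = 0.0175) and -1.26 ± 0.41 in pre-granulosa cells (adjusted p = 0.0417). Cdh5, or VE-cadherin, the cadherin of endothelial junctions, showed little contrast: 1433956_at read 5.06 and 4.69, 5.04 and 5.86, 5.58 and 5.82, and 5.79 and 5.95 in pre-granulosa cells, Sertoli cells, ovaries and testes. Its differences of -0.20 ± 0.30 (Sertoli minus testis) and -0.57 ± 0.30 (pre-granulosa minus ovary) missed the threshold (adjusted p = 0.352 and 0.0921). The second Cdh5 probe set, 1422047_at, spanned only 0.43 over all 8 arrays, and it was not called either (adjusted p = 0.207 and 0.286).

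Emcn showed the widest called difference of the 10 genes on both sides. It read 3.93 and 5.26 in pre-granulosa cells, 5.14 and 5.83 in Sertoli cells, 8.54 and 7.67 in ovaries and 8.68 and 8.82 in testes. It was 8.31-fold lower in Sertoli cells than in testes (-3.05 ± 0.51, adjusted p = 0.00812) and 9.54-fold lower in pre-granulosa cells than in ovaries (-3.25 ± 0.51, adjusted p = 0.00683). Plvap read 5.07 and 5.55 in pre-granulosa cells, 5.93 and 6.15 in Sertoli cells, 7.95 and 8.05 in ovaries and 6.93 and 7.23 in testes. The 4 groups did not overlap, with ovaries highest and pre-granulosa cells lowest. The difference was called for pre-granulosa minus ovary, at 5.43-fold lower (-2.44 ± 0.22, adjusted p = 0.00144), and not for Sertoli minus testis (-0.83 ± 0.22, adjusted p = 0.0191).

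Both probe sets of Eng were called on both sides. The brighter one, 1417271_a_at, read 6.21 and 5.82 in pre-granulosa cells, 6.52 and 6.07 in Sertoli cells, 7.92 and 8.33 in ovaries and 7.72 and 7.80 in testes, and was 2.38-fold lower in Sertoli cells (adjusted p = 0.00963) and 3.63-fold lower in pre-granulosa cells (adjusted p = 0.00345). The other, 1432176_a_at, had all 4 sorted arrays between 4.17 and 4.51, under the low level, and the gonads between 6.46 and 7.42. The fold was at least 3.42 in Sertoli cells (adjusted p = 0.00375) and at least 4.18 in pre-granulosa cells (adjusted p = 0.00311).

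**Figure D2:**
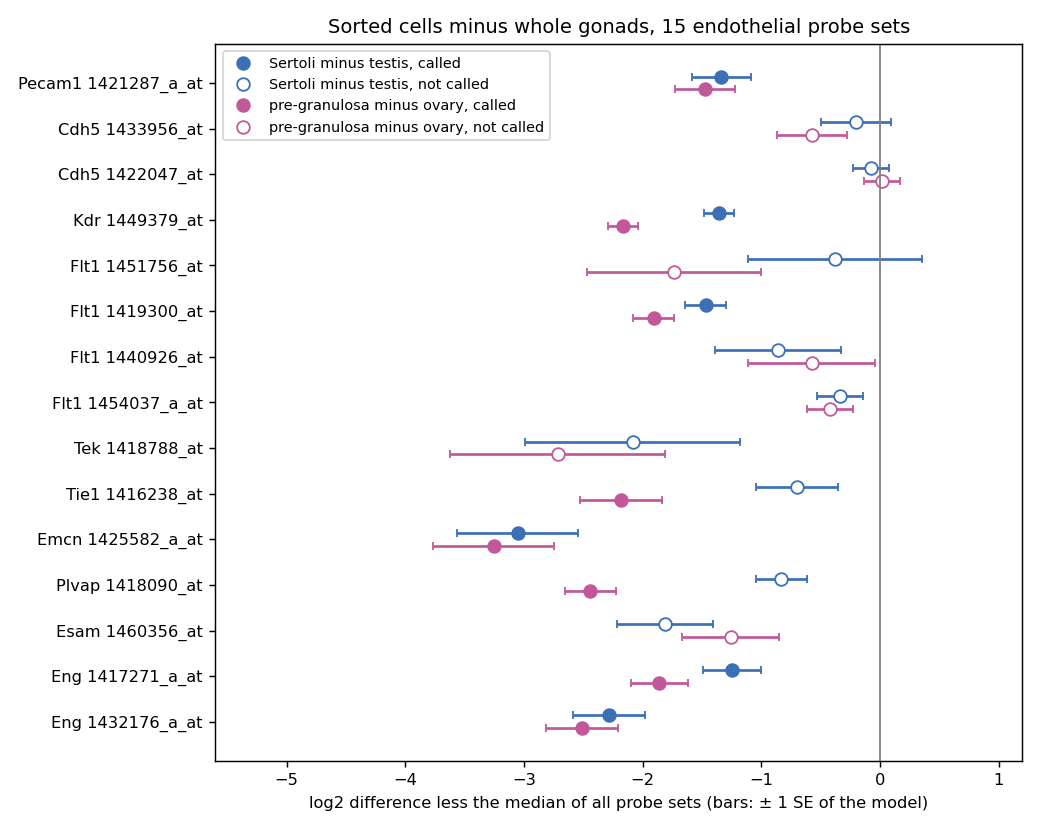
Log2 difference between sorted cells and the matching whole gonad for the 15 probe sets of the 10 genes, less the median over all probe sets, for Sertoli minus testis and pre-granulosa minus ovary; error bars are the model's standard error and filled points are called at an adjusted p of 0.01. Emcn lies farthest to the left among the filled points, at -3.05 and -3.25, and the Cdh5 points lie between -0.57 and 0.02.

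The counts rest on the spread pooled over the groups. The 6 calls of Sertoli minus testis became 0 without either testis array, 1 (Kdr) without either Sertoli array and 3 without either ovary array. The 8 calls of pre-granulosa minus ovary became 1 (Kdr) without either ovary array and 4 without either testis array, and with only the 4 arrays of the comparison limma called 0 (lowest adjusted p = 0.0203). With all arrays quantile normalized 3 and 4 probe sets were called, and with each array centred on its median 3 and 5, and all 10 genes remained lower in sorted cells under both.

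The second question was whether endothelial transcripts differed between XY and XX samples. Among sorted cells, with 1 probe set each, the 10 genes were all higher in Sertoli than in pre-granulosa cells by their means. The median difference was 0.65 against 0.0065 over all probe sets. Pecam1 counts among the 10 genes, although its 4 sorted values all lay under the low level. For Tek and Esam the direction rested on pre-granulosa replicate 1. Their Sertoli means, 7.12 and 5.625, lay below pre-granulosa replicate 2, at 7.98 and 6.16. Of the 15 probe sets 13 were above 0 and 2 below, the other probe sets of Cdh5 and Eng, with a median of 0.28. The sorted values of the Flt1 probe sets 1419300_at and 1454037_a_at and of the other Eng probe set also all lay under the low level. The directions of these and of Pecam1 are therefore not a measured order. Yet 0 of the 15 were called by limma (1.81% of all probe sets were). At an unadjusted p under 0.05 there were 2, Tie1 and Plvap, and 18.9% of all probe sets had such a p. Tie1 differed by 1.26 ± 0.34 (95% interval 0.42 to 2.10, adjusted p = 0.106) and Plvap by 0.73 ± 0.22 (0.21 to 1.25, adjusted p = 0.128). Both Sertoli arrays lay above both pre-granulosa arrays in 5 of 15 probe sets, against 20.9% of all. The 5 include the Flt1 probe set 1419300_at, which lay under the low level. Marker lists of some other cell types lay the same way and others were mixed. Of 12 macrophage genes 11 were above 0 (median 1.18, C1qb called). On the pre-granulosa arrays 7 and 8 of these 12 lay at or under the low level. All 4 of 4 steroidogenic genes of fetal Leydig cells were above 0 (median 2.0, 0 called by limma). They averaged 6.92 and 6.47 on the pre-granulosa arrays, 8.23 and 9.39 on the Sertoli arrays, 6.68 and 6.74 in ovaries and 11.37 and 11.11 in testes. Genes of mural cells, which wrap around vessels, were above 0 in 9 of 12 (median 0.22). Interstitial genes were above 0 in 4 of 7 and red cell genes in 3 of 7. The part of these cell types in the values of the 10 genes was not tested.

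The intervals of the others were wide. Flt1 (1451756_at) differed by 1.5 with an interval of -0.27 to 3.28, Tek by 0.72 with -1.48 to 2.92 and Emcn by 0.89 with -0.34 to 2.13, while Kdr differed by 0.23 with -0.08 to 0.54. Pre-granulosa replicate 1, the array with the largest 3′ excess, held the lowest sorted value of Flt1, Tek, Emcn, Esam, Tie1 and Plvap, and lay below replicate 2 in 7 of the 10 genes, by up to 3.14 for Tek; the seventh was Pecam1, whose sorted values all lay under the low level and have no measured order. In all, 44.5% of probe sets were lower in replicate 1, and the part of RNA quality in these gaps was not tested. Without pre-granulosa replicate 2, 1 probe set was called, Tek, at 2.29 (adjusted p = 0.00337); without any other single array 0 were.

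In whole gonads, Plvap and Kdr were lower in testes than in ovaries by their means and the other genes lay on either side of 0. Plvap differed by -0.92 ± 0.22 (1.89-fold, 95% interval -1.44 to -0.40, adjusted p = 0.197) and Kdr by -0.62 ± 0.13 (1.54-fold, -0.93 to -0.31, adjusted p = 0.142), the 2 probe sets with an unadjusted p under 0.05 (9.31% of all had one). By limma 0 of 15 were called, against 0.215% of all probe sets. Of the 10 genes 5 were higher and 5 lower in testes, with a median of 0.00045 against -0.02 over all probe sets. With 1 probe set per gene, Emcn (0.65 ± 0.51) and Esam (0.57 ± 0.41) had the highest testis minus ovary differences, and Tek (0.05 ± 0.90), Pecam1 (-0.04 ± 0.25), Flt1 (0.11 ± 0.73) and Cdh5 (0.17 ± 0.30) the smallest. The other Flt1 probe sets disagreed, at 0.89 ± 0.53 for 1440926_at, -0.21 ± 0.17 for 1419300_at and 0.115 ± 0.19 for 1454037_a_at. The groups did not overlap in 5 probe sets with testes higher (23.0% of all) and in 5 with ovaries higher (27.0%).

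**Figure D3:**
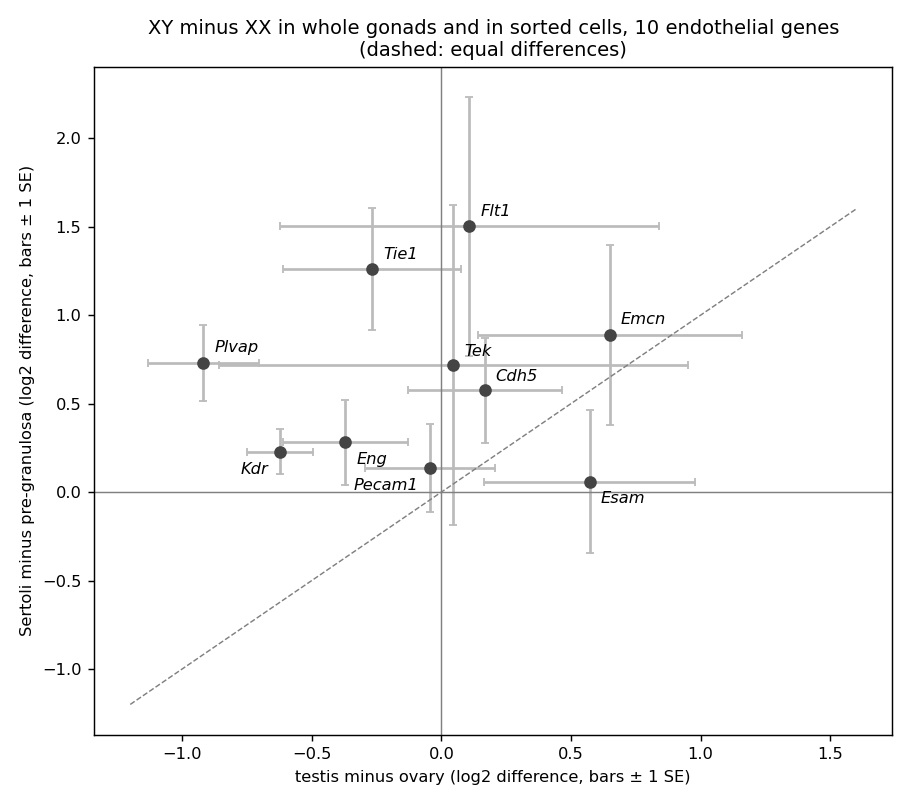
XY minus XX log2 difference of the 10 endothelial genes (1 probe set per gene) among sorted cells (Sertoli minus pre-granulosa) and among whole gonads (testis minus ovary). Error bars are ± 1 standard error of the model. The 95% interval of Plvap, which is not drawn, runs from 0.21 to 1.25 among sorted cells and from -1.44 to -0.40 among gonads. No probe set was called in either comparison.

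Some members differed in direction between sorted cells and gonads, and for 3 of 15 probe sets, Kdr, Plvap and the Flt1 probe set 1419300_at, no group overlapped its partner in this opposite pattern (3.6% of all). All 4 sorted values of that Flt1 probe set lay under the low level, so its order among sorted cells is not a measured one. Plvap was higher on the XY side among sorted cells and on the XX side among whole gonads, and the difference between the 2 contrasts was 1.65 ± 0.30 (95% interval 0.91 to 2.39, unadjusted p = 0.00146). Kdr gave 0.85 ± 0.18 (0.41 to 1.29, unadjusted p = 0.00307) and Tie1 1.53 ± 0.49 (0.34 to 2.71, unadjusted p = 0.0194). After adjustment by limma over all probe sets these were 0.111, 0.151 and 0.310, and 0 of 15 were called (0.0% of all probe sets were called). At an unadjusted p under 0.05 there were 3 of the 15, against 11.4% of all.

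The wider endothelial programme was read from 26 further genes of endothelial identity. In Sertoli cells 10 of them were called lower than in testes and in pre-granulosa cells 11 were called lower than in ovaries, with 0 higher. Over all genes, with 1 probe set each, 8.71% and 9.12% were called lower. Their median difference as deposited was -1.92 against -0.21 over all probe sets, and -2.30 against -0.25. Sox7, a transcription factor of early vessels, read 4.97 and 5.14 in Sertoli cells against 9.48 and 9.35 in testes, 17.7-fold lower (adjusted p = 7.01e-04), and was 6.69-fold lower in pre-granulosa cells than in ovaries (adjusted p = 0.00178). The ETS factors Fli1 and Ets1 were 14.6-fold and 14.1-fold lower in Sertoli cells, and at least 8.64-fold and 5.88-fold lower in pre-granulosa cells. Ptprb, the phosphatase that restrains Tek, was 4.35-fold and 4.74-fold lower, and Adgrl4, an endothelial adhesion receptor, at least 4.66-fold and 4.33-fold lower. Without either testis array 0 of the 26 were called for Sertoli minus testis, without either Sertoli array 3; without ovary replicates 1 and 2, 2 and 0 were called for pre-granulosa minus ovary, and without either testis array 5. With all arrays quantile normalized 7 were called in each comparison.

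Individual genes stood apart in size or direction. Adgrf5 read 10.06 and 8.76 in pre-granulosa cells, 6.95 and 7.60 in Sertoli cells, 8.93 and 8.95 in ovaries and 7.63 and 8.32 in testes. It was the 1 gene of the 26 above 0 as deposited for pre-granulosa minus ovary. That difference, 0.72 ± 0.47 less the median, was not called (adjusted p = 0.506). Calcrl was lower in sorted cells on both sides, to unlike degrees. Calcrl, the receptor that binds adrenomedullin together with Ramp proteins, read 8.28 and 10.48 in pre-granulosa cells, 6.38 and 5.11 in Sertoli cells, 11.55 and 11.70 in ovaries and 11.44 and 11.45 in testes. It was 45.0-fold lower in Sertoli cells than in testes (adjusted p = 0.00446) and not called in pre-granulosa cells (adjusted p = 0.0707). For Sertoli minus pre-granulosa Calcrl had the largest difference of the 26, at -3.63, which was not called (adjusted p = 0.0451). Between these sorted cells 19 of the 26 genes were higher in Sertoli cells and 7 lower, with a median difference of 0.22. Robo4, a guidance receptor that steadies vessels, read 4.36 and 4.22 in pre-granulosa cells but 6.78 and 7.53 in Sertoli cells, where the testes read 6.75 and 7.54 and the ovaries 7.58 and 7.37. Its pre-granulosa arrays alone were low, and it was at least 5.17-fold higher in Sertoli than in pre-granulosa cells (adjusted p = 0.00842), the 1 gene of the 26 called between sorted cell types (1.62% of all genes were called higher). That call was lost without any one array, and without a pre-granulosa array another gene was called in its place, Calcrl without replicate 1 and Sox17 without replicate 2.

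**Figure D4:**
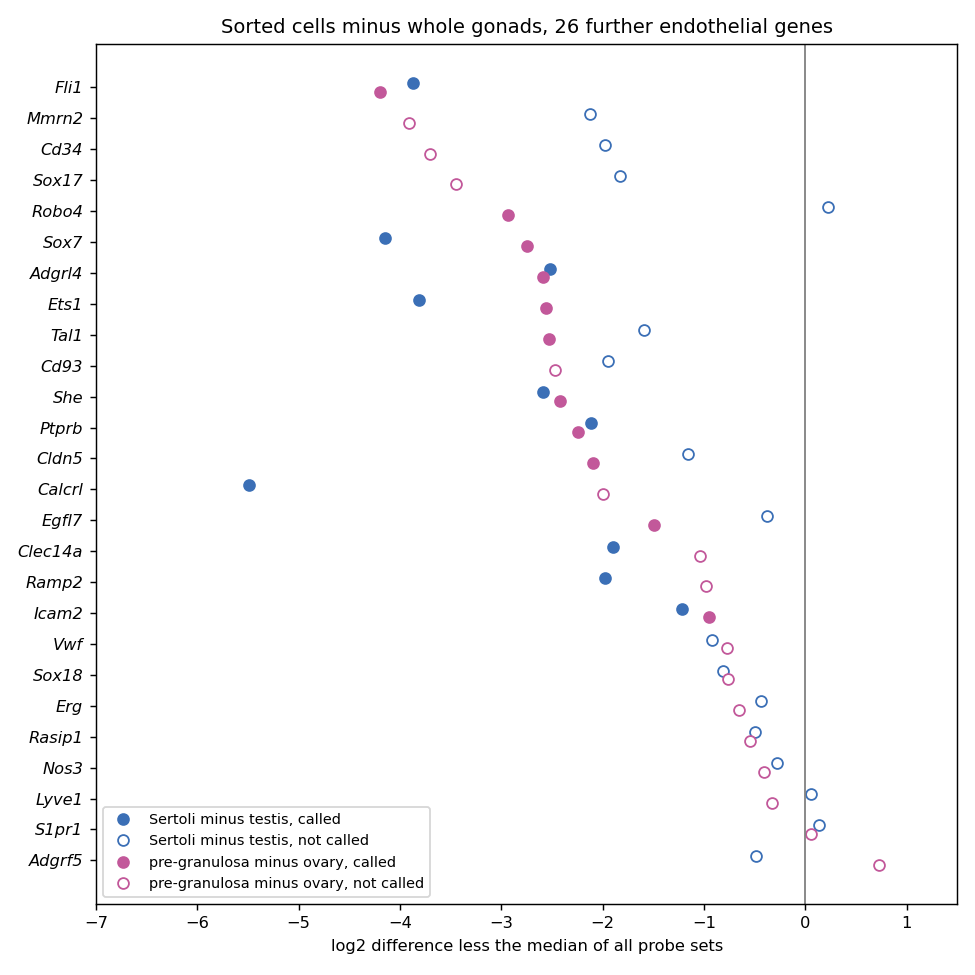
Sorted minus gonad log2 differences, less the median over all probe sets, of the 26 further genes of endothelial identity. Sertoli minus testis and pre-granulosa minus ovary are shown for each gene, without error bars, and filled points are called. Calcrl stands lowest for Sertoli minus testis at -5.49, and Robo4 is near 0 there (0.22) but at -2.93 for pre-granulosa minus ovary.

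The ligands and further receptors of the VEGF, angiopoietin and apelin systems were less uniform. Of 12 measured, 3 were called lower in Sertoli cells than in testes, Vegfa, Flt4 and Apln, and 2 were called lower in pre-granulosa cells than in ovaries, Flt4 and Apln, against 8.71% and 9.12% of all genes. The medians were -1.4 and -1.2 as deposited. Flt4, the VEGF receptor of lymphatic and growing vessels, was 6.57-fold (adjusted p = 8.54e-04) and 4.85-fold lower (adjusted p = 0.00125). Vegfa, the main growth factor for vessels, read 8.57 and 8.91 in pre-granulosa cells, 7.76 and 7.87 in Sertoli cells, 8.86 and 8.81 in ovaries and 8.93 and 9.14 in testes. Sertoli arrays were the lowest of the 8, 2.01-fold below testes (adjusted p = 0.00603). That call was lost with quantile normalization, with median centring and without any one ovary, testis or Sertoli array. The difference of -0.92 ± 0.17 from pre-granulosa cells was not called (adjusted p = 0.0369). Angpt2, a Tek ligand, stayed between 5.64 and 6.02 on all arrays. Without either testis array 0 of the 12 were called for Sertoli minus testis, without either Sertoli array 1 (Flt4), and without either pre-granulosa array 5. For pre-granulosa minus ovary 0 were called without either ovary array and 1 (Flt4) without either testis array. Without pre-granulosa replicate 2 there were 4.

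Endoglin works with the type I receptor Acvrl1 (ALK1), and here the partner did not follow the co-receptor. Acvrl1 read 6.38 and 5.91 in pre-granulosa cells, 7.88 and 7.96 in Sertoli cells, 6.57 and 6.45 in ovaries and 6.50 and 6.45 in testes, so that the Sertoli arrays stood above the other 6. It was higher in Sertoli than in pre-granulosa cells by 1.77 ± 0.19 (adjusted p = 0.00605), where 1.62% of all genes were called higher. It was also 3.16-fold higher in Sertoli cells than in testes (adjusted p = 0.00470), where 0.989% of all genes were called higher. Those calls were lost without either ovary or testis array, and without either Sertoli array. Of the 12 endoglin and TGF-beta partners, Acvrl1 was the 1 called in both of these comparisons. The 2 of 12 called lower in pre-granulosa cells than in ovaries, against 9.12% of all genes, were Tgfbr2, the type II TGF-beta receptor, and Smad1, a signal carrier of the pathway. Neither of the latter was called after either rescaling, nor without pre-granulosa replicate 1 or any one ovary or testis array; without a Sertoli array 1 was called, Tgfbr2.

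Among 12 arterial genes 1 was called lower in Sertoli cells than in testes, Hey2, and 2 in pre-granulosa cells than in ovaries, Hey2 and Efnb2. The count of 1 is near the 8.71% of all genes called lower, and 9.12% were on the XX side. Hey2, a Notch target of arterial endothelium, read 3.70 and 3.72, 3.62 and 3.67, 6.62 and 6.2, and 7.99 and 8.31 in pre-granulosa cells, Sertoli cells, ovaries and testes. It was at least 8.91-fold and at least 2.59-fold lower in the sorted cells (adjusted p = 4.36e-04 and 0.00121). Testes lay above ovaries by 1.74 ± 0.20, which was not called (adjusted p = 0.0240). The Hey2 call of Sertoli minus testis was lost without either testis array and that of pre-granulosa minus ovary without either ovary array; Efnb2, the ephrin ligand of arterial endothelium, 12.7-fold lower (adjusted p = 0.00764), was lost without any one array and after either rescaling. Of 4 venous genes, 0 were called by limma in any of these comparisons. Without either pre-granulosa array 3 of them, Nr2f2, Nrp2 and Aplnr, were called lower in Sertoli cells than in testes, and for pre-granulosa minus ovary 2 were called without replicate 1 and 3 without replicate 2. Between sorted cells 2 were called without pre-granulosa replicate 2. Nr2f2, the factor of venous identity that interstitial cells also express, read 5.80 and 9.82 in the 2 pre-granulosa arrays, a gap like that of Tek.

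Markers of the other cells that could bring vessel transcripts or free RNA were read beside the 10 genes. The mean log2 level of the 10 was 5.12 and 5.96 in pre-granulosa cells, 6.05 and 6.31 in Sertoli cells and 7.63 to 7.78 in gonads. Mural and pericyte genes, which mark the cells wrapped around vessels, averaged 6.05 to 6.47 in sorted cells and 7.83 to 8.03 in gonads, and 6 and 7 of 12 were called lower in Sertoli and pre-granulosa cells, against 8.71% and 9.12% of all genes. With quantile normalization or median centring 4 and 4 were called. Pdgfrb, the platelet-derived growth factor receptor of pericytes, was 3.23-fold and 3.32-fold lower (adjusted p = 0.00112 and 0.0011). Without either testis array 0 of the 12 mural genes were called for Sertoli minus testis and without either Sertoli array 3, and for pre-granulosa minus ovary 1 was called without either ovary array and 3 without either testis array. Macrophage genes averaged 4.90 and 4.76 in pre-granulosa cells, 5.78 and 7.12 in Sertoli cells and 6.22 to 6.76 in gonads, so that Sertoli replicate 2, where Cdh5, Kdr, Flt1, Tie1, Emcn and Plvap were also highest among the sorted arrays, had the highest macrophage level of the 8. Red cell genes averaged 5.74 to 6.53 in sorted cells and 8.0 to 8.32 in gonads, and interstitial genes 7.43 to 8.47 and 10.30 to 11.31. The part of these cells in the levels of the 10 genes was not tested.

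**Figure D5:**
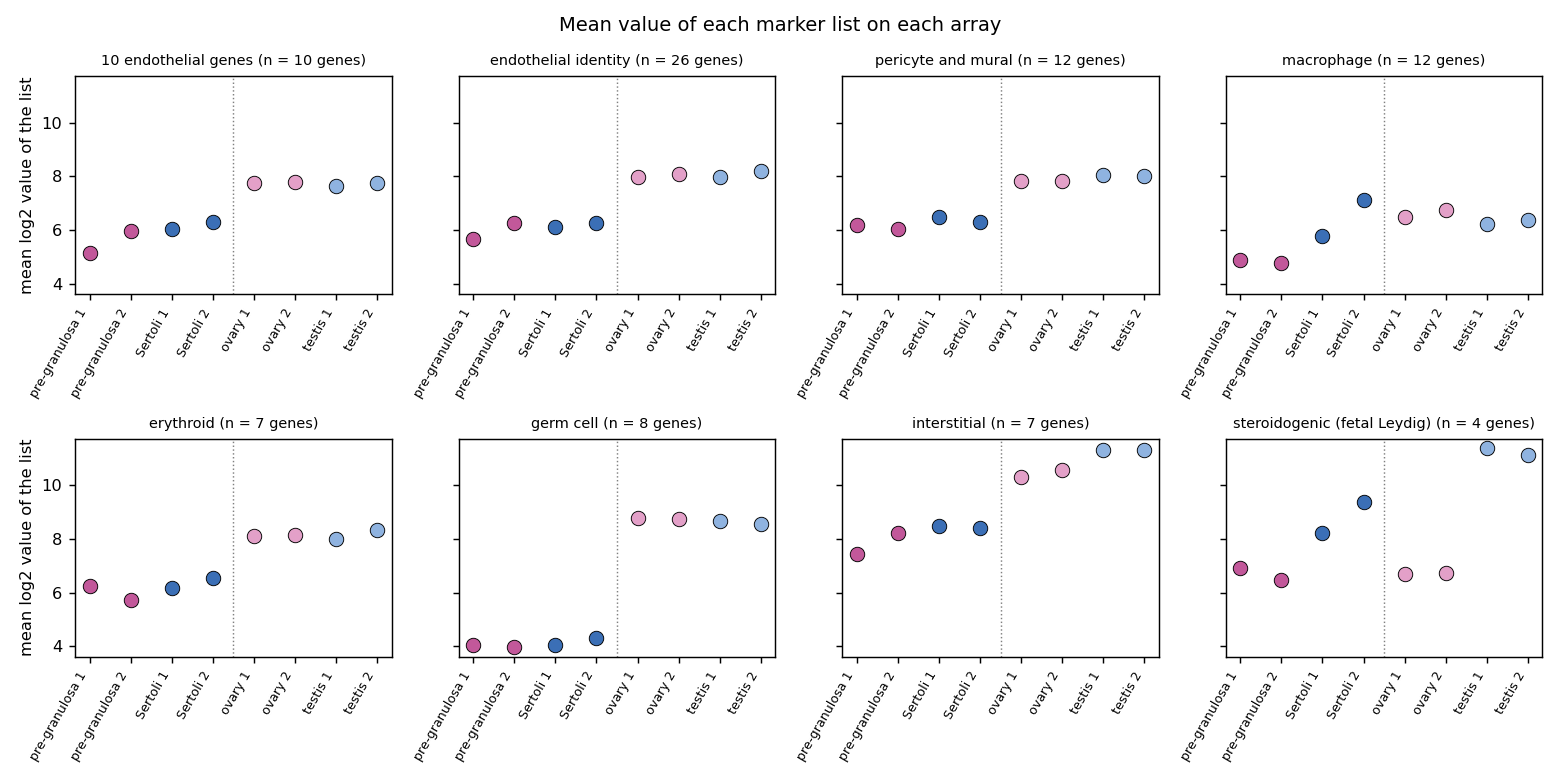
Mean log2 level of each marker list on each of the 8 arrays (x axis, arrays by group; y axis, mean over the genes of the list); each point is 1 array. The 10 endothelial genes and the mural genes are higher in all 4 gonad arrays than in all 4 sorted arrays, while the macrophage genes are highest in Sertoli replicate 2 at 7.12.

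The members resembled one another to different degrees. Over the 8 arrays, the Pearson correlation of each gene with the mean of the other 9 was 0.97 for Emcn, 0.96 for Pecam1, 0.94 for Plvap, 0.93 for Kdr, 0.92 for Tek and Tie1, 0.91 for Esam and 0.90 for Eng, and lower for Flt1 (0.78) and Cdh5 (0.73). Among 7962 other genes whose values varied with an SD of at least 0.5, those most like the mean of the 10 were Fn1 (0.997), Sash1 (0.994), Snrpg (0.994), Gfra2 (0.994), Cnn2 (0.994), Rp2 (0.992), Heatr3 (0.992) and Hus1 (0.992). Of the 21 other endothelial identity genes in that ranking, 3 stood among the 200 most alike, Cd34, Cd93 and Adgrl4, and 200 genes were 2.51% of those ranked. These correlations are descriptions, since the points fall into a sorted and a gonad set that were apparently normalized apart, and any gene that differs between the sets scores high.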

How the data were processed

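Transcripts were measured on 8 arrays, 2 in each of 4 groups. The deposited log2 values are those of the authors, with RMA named in the submitters' processing notes and no version given there; the genome build and annotation behind them are not given in the sources used here. The table held 45101 probe sets, of which 64 array controls were left out. A single symbol belonged to 34945 probe sets, several to 932 and none to 9160, and 34741 matched a RefSeq gene table through the gene identifier. A gene outside the 10 is given by its brightest single-symbol probe set. On the deposited values, limma 3.58.1 (R 4.3.3) fitted a mean for each group to the 8 arrays together, with eBayes moderation and 4 residual degrees of freedom; tests were two-sided and calls made at an adjusted p of 0.01. The series text names R/maanova for the authors' test, which was not run here. The procedure was tested on simulated data. Replicate numbers were checked for pairing and not used as a block. The members and gene lists were chosen with earlier results of these data known. Genes most like the members were named by rank of correlation, and list genes where called or where a comparison turned on them, some after their values were seen. Alternatives were other normalizations, moderation, weights, filters and thresholds, and omission of each array. The number of arrays limits the precision.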

Additional observations from a re-analysis of the deposited data

Results flagged for a closer look

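For 3 of the 15 probe sets, both Sertoli arrays lay above both pre-granulosa arrays while both ovary arrays lay above both testis arrays, a pattern that 3.6% of all probe sets showed. The test of the difference between the 2 contrasts (XY minus XX among sorted cells less the same among whole gonads) gave 1.65 ± 0.30 for Plvap, 0.85 ± 0.18 for Kdr and 0.48 ± 0.24 for the Flt1 probe set 1419300_at (log2 ± SE). By limma none of these 3 was called after adjustment over all probe sets (adjusted p = 0.111, 0.151 and 0.550; unadjusted p = 0.00146, 0.00307 and 0.0949). For that Flt1 probe set all 4 sorted values lay under the low level of 4.78, so the order among them is not a measured order of transcript levels.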

How the results depend on the processing

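Over the alternatives, 1042 of 1185 single differences kept their direction and their side of the threshold, 99 were no longer called, 15 became called and 29 uncalled ones changed sign; no called difference changed sign. Of 15 probe sets, those called for Sertoli minus testis and for pre-granulosa minus ovary numbered 6 and 8 as reported, 3 and 4 with quantile normalization over all arrays, 3 and 5 with each array centred on its median, and 1 and 2 without moderation. With array weights 5 were called for pre-granulosa minus ovary, and 0 with only the compared groups in the fit. Leaving out each array in turn gave 0 to 9 and 1 to 10. Between sorted cell types it gave 0 to 1, and for testis minus ovary and the difference of the contrasts 0 throughout. Deviations of same-numbered replicates correlated between compared groups at -0.01 to 0.04. Between groups not compared they correlated at 0.05 (Sertoli and ovary) and -0.16 (pre-granulosa and testis). Such values cannot tell whether same-numbered samples shared animals or litters, which the labels do not state. With the replicate number as a block 4 and 7 were called. The counts of the other vascular lists without each array, and under the scalings, were added after seeing the data. Signal over background limits Pecam1, the Flt1 probe sets 1419300_at and 1454037_a_at and the Eng probe set 1432176_a_at, whose 4 sorted values all lay under the low level.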
